A study of Mus musculus with 14 samples.

Results

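The 10 genes described here were Eif4g2, Elavl1, Igf1r, Rock2, Notch1, Zeb1, Foxo1, Met and Hras, which have been named as targets of the microRNA miR-139, together with Polr2m. They were taken by name from a list and make up 10 of the 52550 genes in the deposited count table. No cutoff on a measured value chose them, although they were chosen with earlier results of these data known. The list carries the label of reported miR-139-5p targets, which is not right for every gene on it. Polr2m is not a target but the factor that the study assigns to the silencing of MIR139, Elavl1 is named in the study as a target of the opposite strand, miR-139-3p, and Eif4g2 is a target that the study itself tested. The other genes on the list are known as targets from work on other cells.

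RNA was sequenced from 14 libraries of mouse bone marrow cells on the C57BL/6 background, with mice aged 8 to 20 weeks according to the labels. Hematopoietic stem and progenitor cells (HSPCs) came from WT mice in 4 libraries and from Mir139KO mice, which lack the Mir139 gene after editing with a Cas9 nickase, in 4 libraries. A further 6 libraries came from WT HSPCs into which a retrovirus had brought MLL-AF9, a fusion gene found in acute myeloid leukemia, with the neo vector in replicates 1 to 3 and the puro vector in replicates 4 to 6. HSPCs were enriched from femur and tibia with a commercial set of antibodies and were taken here as lysed directly, which the labels do not state for each library, whereas MLL-AF9 cells had been cultured with cytokines, selected with a drug and replated. No library was labeled as cultured HSPCs without MLL-AF9, so the fusion gene, culture, selection and replating cannot be told apart. The labels do not say whether replicates are separate mice or cultures, so p values measure only the spread between these libraries.

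A microRNA binds messenger RNAs mainly through its seed, bases 2 to 8, which pair with matching sites in the 3′ untranslated region (3′ UTR), and the bound RNA is translated less and often degraded. A target may therefore rise in RNA level when its microRNA is lost, although an effect on translation alone leaves no trace in RNA counts. MiR-139 is made as 2 mature strands from a gene inside Pde2a and is regarded as a tumor suppressor in several cancers, acute myeloid leukemia among them. The targets listed here act in translation, RNA stability, growth factor signaling, cell shape and transcription.

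The mature strands are shown because their seeds, in capitals, define the sites counted here. They are from RefSeq, from 101475382 to 101475403 (5p) and from 101475418 to 101475439 (3p) on the plus strand of chromosome 7, build GRCm38.p6.
mmu-miR-139-5p: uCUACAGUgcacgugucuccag
mmu-miR-139-3p: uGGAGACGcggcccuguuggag

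The 7-base match to the miR-139-5p seed, ACTGTAG, was found in the annotated 3′ UTR of 7 of the 10 genes. Igf1r and Zeb1 held 2 matches each, and Eif4g2, Rock2, Notch1, Met and Hras held 1. The 8-base form, ACTGTAGA, which adds an A opposite base 1, was present once in Eif4g2, once in Igf1r and once in Zeb1. No 7-base match was found in Elavl1, Polr2m or Foxo1, although Foxo1 and Met each held 1 shorter 5p match of 6 bases and an A. Of the 20939 genes with an annotated 3′ UTR, 11.6% held the 7-base and 3.93% the 8-base match, read on the strand of the transcript. The 7-base match to miR-139-3p, CGTCTCC, was absent from all 10 genes and present in 3.34% of genes with a 3′ UTR. The shorter 3p match of 6 bases and an A was found at 2 places in Elavl1 and once each in Eif4g2, Igf1r and Hras. These matches describe the sequence and do not show binding. The sites of 6 genes are given with the match in capitals, on the strand of the transcript and in build GRCm38.
Eif4g2, chr7:111072336-111072342, minus strand: agcaacactgaatACTGTAGAgatgcac
Igf1r, chr7:68228997-68229003, plus strand: acctgttttaatcACTGTAGAaaagccc
Igf1r, chr7:68230186-68230192, plus strand: ggttttcttctacACTGTAGgtgacact
Rock2, chr12:16978762-16978768, plus strand: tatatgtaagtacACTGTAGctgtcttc
Notch1, chr2:26457991-26457997, minus strand: aactacatgcaaaACTGTAGgtaatgaa
Met, chr6:17573557-17573563, plus strand: gaacacataaggaACTGTAGcccagatt
Hras, chr7:141189676-141189682, minus strand: gtcctacagagagACTGTAGgaagtttt

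For Eif4g2 the study tested this site with reporter oligonucleotides of 60 bases, which differed at 3 positions. The 29 bases around the change are shown because the altered bases, in capitals, lie inside the 7-base match.
Eif4g2 reporter, wild type: aacactgaatactGTAgagatgcactttg
Eif4g2 reporter, mutated: aacactgaatactCCCgagatgcactttg

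Total counts per library ranged from 35016668 to 45877994, and 3 counts, the smallest number read as a signal here, corresponded to 0.0654 to 0.0857 CPM (counts scaled by library size). Mir139 (chromosome 7, 101475376 to 101475443) had 0 counts in all 14 libraries, which allows up to 3 counts in each, and its host gene Pde2a had 0 to 2 counts, with 64.3% of its exon length shared with Gm45837 on the same strand, so that its reads may not have been assigned. Neither gene could check the genotype labels. A single noncoding RNA gene, Gm26917, took 16.99 to 21.93% of the counts in 4 HSPC libraries (WT replicates 1 and 2, Mir139KO replicates 2 and 3) and 32.7 to 35.44% in the other 4, against 7.55 to 10.41% in MLL-AF9 cells. These HSPC libraries are called low-share and high-share below, split at 25%. MLL-AF9 replicates 4 and 6 were closer to each other than any other pair. For genes with at least 100 counts in the pair, their median chi-square was 1.25, against 0.455 from sampling noise alone and 13.2 to 86.6 in the other MLL-AF9 pairs. They were counted as 2 libraries, although these values do not show that they are independent. A fit with the 2 summed is among the alternatives. The stem and progenitor list, with Kit, Cd34, Ly6a, Flt3, Mecom, Meis1 and Gata2 among its 8 genes, summed to 404 to 600 CPM in HSPCs and to 174 to 1058 CPM in MLL-AF9 cells, where Meis1 was higher than in WT HSPCs and Cd34 (0.895 ± 0.686 CPM, SD, n = 6) and Flt3 (1.42 ± 2.11 CPM) were lower. Neutrophil markers summed to 4516 to 14914 CPM in WT and 11375 to 22320 CPM in Mir139KO HSPCs, with a median log2 fold change of 0.64 between the genotypes against -0.03 for all genes and 0 of 8 called, and to 2465 to 4181 CPM in MLL-AF9 cells. HSPC libraries also held 1172 to 2043 CPM of erythroid markers, 800 to 1856 CPM of mast-cell, basophil and eosinophil markers and 388 to 2639 CPM of stroma and endothelium markers. In MLL-AF9 cells these lists summed to 1.96 to 4.03, 5.35 to 25.4 and 19.3 to 140 CPM. B-cell markers summed to 38.0 to 95.8 CPM in HSPCs and 2.64 to 7.29 CPM in MLL-AF9 cells. T- and NK-cell markers summed to 149 to 292 CPM in HSPCs and 4.36 to 16.9 CPM in MLL-AF9 cells. Monocyte and macrophage markers overlapped, at 1335 to 2065 CPM in HSPCs and 331 to 1458 CPM in MLL-AF9 cells. In such mixed samples fewer cells of a type and less RNA per cell cannot be told apart, and the part of these markers in the results below was not tested.

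Levels of different genes were compared per length, as TPM, in which counts are divided by the exon length of the gene and scaled to the same sum in each library. By group mean Eif4g2 ranked first in all 3 groups, with 113 ± 111 TPM in WT HSPCs (SD, n = 4), 72.3 ± 54.3 TPM in Mir139KO HSPCs (SD, n = 4) and 229 ± 118 TPM in MLL-AF9 cells (SD, n = 6). In both HSPC groups Notch1, Hras, Elavl1, Igf1r, Polr2m and Met followed in that order, and Rock2 was last, with 3.10 ± 2.56 TPM in WT and 2.35 ± 1.65 TPM in Mir139KO HSPCs. Eif4g2 was first in 2 of 4 libraries of each HSPC group, the low-share ones, and Hras was first in the other 2, the high-share ones. In MLL-AF9 cells Eif4g2 was first in 5 of 6 libraries. Neighbours from Eif4g2 to Igf1r did not keep their order in every HSPC library. For example Notch1 exceeded Hras in 2 of 4 WT and in 2 of 4 Mir139KO libraries. In MLL-AF9 cells Igf1r (95 ± 36.9 TPM), Notch1 (83.9 ± 48.9 TPM), Rock2 (62.4 ± 15.6 TPM) and Elavl1 (57.6 ± 14 TPM) came after Eif4g2, and Igf1r exceeded Notch1 in 3 of 6 libraries. Polr2m had 32.8 ± 12.0 TPM there, above Hras in 6 of 6 libraries. Zeb1 was last, with 2.03 ± 0.79 TPM, below Met in 6 of 6 libraries.

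**Figure D1:**
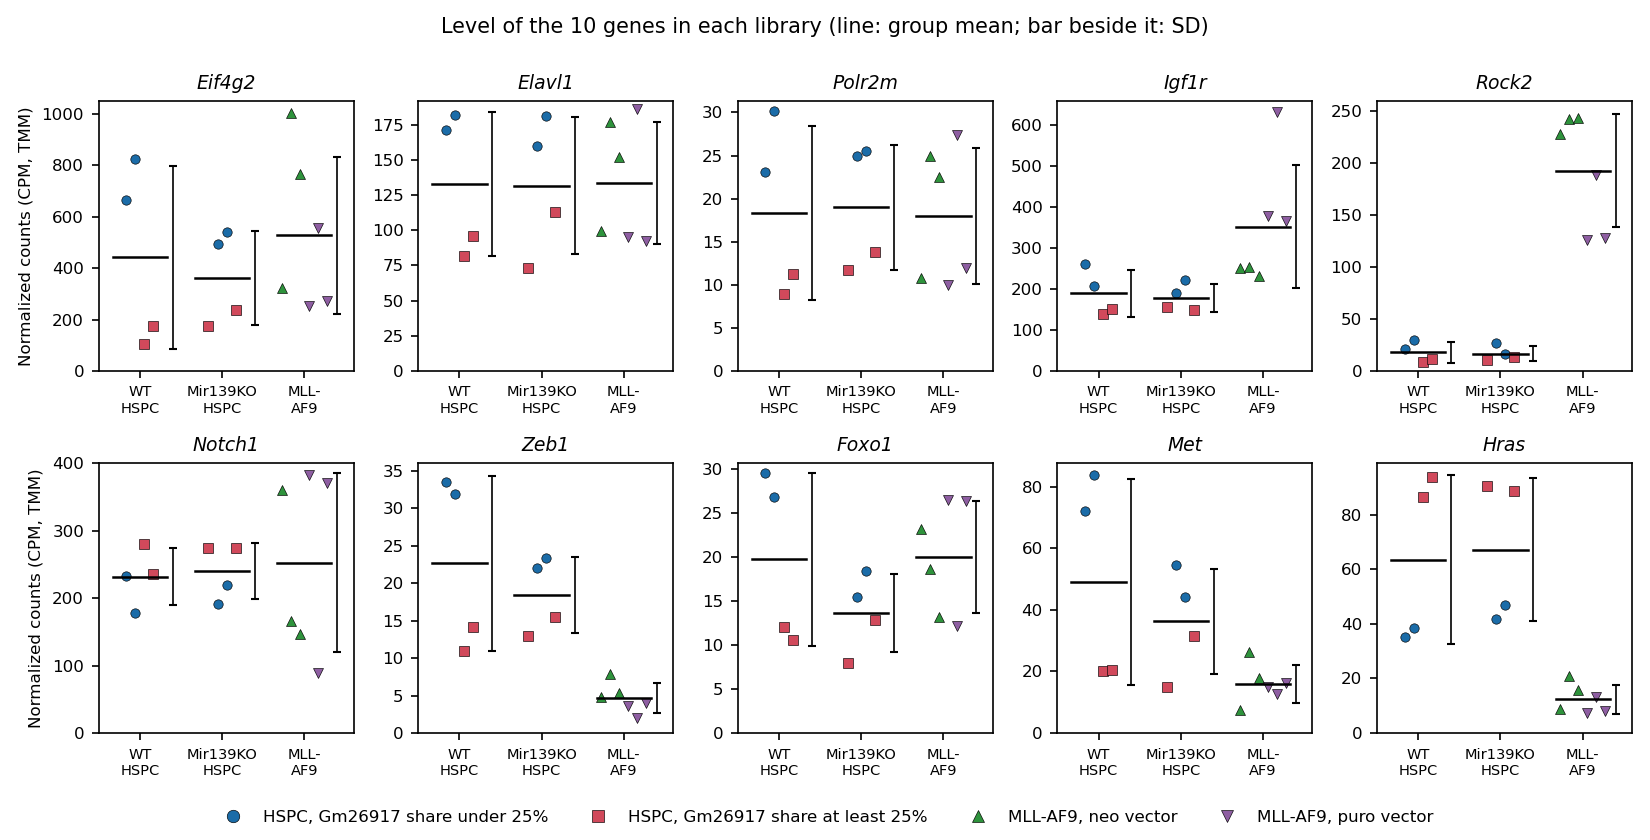
Normalized counts (CPM with TMM factors over the 14 libraries, linear axes from 0) of the 10 genes in each library, with the mean and SD of each group and symbols for the Gm26917 share class of HSPCs and the vector of MLL-AF9 cells. Rock2 lies at 126 to 243 CPM in MLL-AF9 cells, above all HSPC libraries, Zeb1 and Hras lie below all of them, and most genes split the HSPC libraries by share class.

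Mir139KO and WT HSPCs were compared to ask whether targets of miR-139 change in normal progenitors when the gene is absent. None of the 10 genes passed the test: 0 of 10 were called at an adjusted p under 0.05, where 0% of the 15056 genes tested were called, and 0 of 10 had an unadjusted p under 0.05, against 0.571% of all genes. Adjusted p values are Benjamini-Hochberg values over all genes tested in edgeR's quasi-likelihood test. The median log2 fold change of the 10 genes was -0.09 and that of all genes -0.03. The groups overlapped for all 10 genes, where 0.485% of all genes tested did not overlap. The 0.571% lies far below what a threshold of 0.05 allows by chance, so this test was conservative. The split by Gm26917 share was left in its error. With the share class as a covariate, 1 of 10 and 3.56% of all genes had an unadjusted p under 0.05. Of the 10 genes 0 were called in that fit, and 0% of all genes.

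Eif4g2 encodes a relative of the scaffold protein eIF4G that supports cap-independent translation. Its levels were 665, 826, 106 and 173 CPM in WT replicates 1 to 4. In Mir139KO replicates 1 to 4 they were 174, 494, 540 and 239 CPM. The low-share libraries held 494 to 826 CPM and the high-share libraries 106 to 239 CPM, whatever the genotype. The log2 fold change was -0.30 (SE 0.65, adjusted p = 0.9999), with a 95% interval from -1.75 to 1.16, so a change of 2-fold in either direction lay within the interval. Against the WT libraries of the same class, the Mir139KO libraries were lower in the low-share class, at -0.51 (adjusted p = 0.168), and higher in the high-share class, at 0.53 (adjusted p = 0.9999), each 2 against 2.

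Elavl1 encodes HuR, an RNA-binding protein that stabilizes messages with AU-rich elements. It measured 171, 182, 81.6 and 95.7 CPM in WT and 73.1, 160, 181 and 113 CPM in Mir139KO replicates 1 to 4. The group means were thus 133 ± 51.4 and 132 ± 48.4 CPM (SD, n = 4 each), with a log2 fold change of -0.02 (SE 0.36, interval -0.82 to 0.79). The values again followed the share class. Polr2m, which encodes a protein (Gdown1) that binds RNA polymerase II, measured 23.1, 30.2, 8.88 and 11.2 CPM in WT and 11.7, 25, 25.5 and 13.8 CPM in Mir139KO replicates 1 to 4. Its log2 fold change was 0.04 (SE 0.45, interval -0.96 to 1.04).

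Among the signaling genes, Igf1r, the receptor for insulin-like growth factor 1, had 189 ± 57.4 CPM in WT and 179 ± 33.9 CPM in Mir139KO HSPCs. Its interval of -0.67 to 0.50 excluded a doubling. Notch1, a receptor that directs lymphoid fate, had 232 ± 42.1 and 241 ± 41.5 CPM, with the narrowest interval of the 10 genes, -0.47 to 0.56. Met, the receptor for hepatocyte growth factor, had 49.1 ± 33.6 and 36.3 ± 17.1 CPM, and Hras, a small GTPase downstream of growth factor receptors, 63.5 ± 31.0 and 67.1 ± 26.2 CPM. Rock2, a kinase that contracts the actin cytoskeleton, had 17.8 ± 9.81 and 16.6 ± 6.99 CPM.

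For the transcription factors, Zeb1, a repressor known from epithelial-mesenchymal transition, had 22.6 ± 11.7 CPM in WT and 18.4 ± 5.04 CPM in Mir139KO HSPCs, at a log2 fold change of -0.30. Foxo1, which acts downstream of AKT and is held in the cytoplasm by it, had the lowest value of the 10 genes, -0.54 (SE 0.41, interval -1.46 to 0.39). Foxo1 measured 29.5, 26.8, 12.0 and 10.6 CPM in WT and 7.99, 15.4, 18.4 and 12.8 CPM in Mir139KO replicates 1 to 4. It was the gene of the 10 with an unadjusted p under 0.05 (0.0387, adjusted p = 0.995) when the share class entered the fit as a covariate, at -0.44, where 3.56% of all genes had such a p. Its sign was negative under all 21 alternatives, although it was never called.

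**Figure D2:**
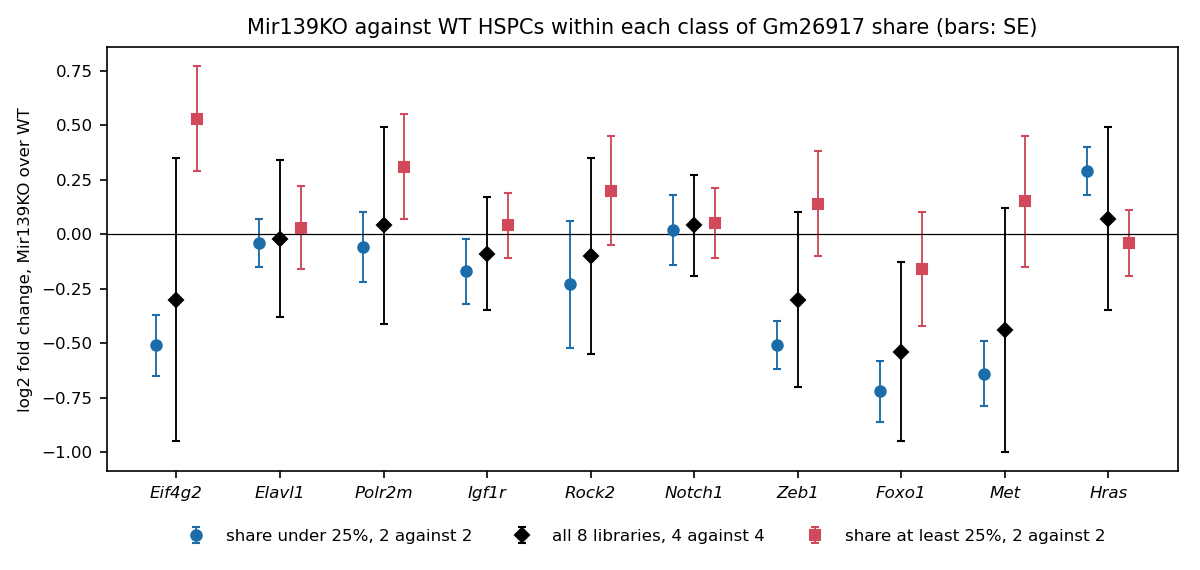
Log2 fold change of Mir139KO over WT HSPCs for each of the 10 genes, in the low-share libraries, in all 8 libraries and in the high-share libraries, with bars of 1 SE. Eif4g2 sits at -0.51 in the low-share and 0.53 in the high-share class, while Elavl1 and Notch1 stay within 0.05 of 0 in each class.

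Within the low-share class 5 of the 10 genes had an unadjusted p under 0.05, where 21% of all 15640 genes did, and 0 were called, against 0.00639% of all genes. They were Eif4g2, Zeb1 (-0.51), Foxo1 (-0.72), Met (-0.64) and Hras (0.29), with adjusted p values of 0.162 to 0.238. Gm26917 took 16.99 and 17.78% of the counts of the WT libraries in that class and 21.29 and 21.93% of those of the Mir139KO libraries, so genotype and share cannot be told apart there. Within the high-share class 0 of 10 had such a p, against 3.8% of all genes, and 0 were called, against 0.0068%. The difference between the classes was tested as an interaction, chosen after seeing the data. Eif4g2 differed by 1.08 (SE 0.34, unadjusted p = 0.0128, adjusted p = 0.285) and Zeb1 by 0.69 (adjusted p = 0.285), and 0 of the 10 genes and 0 of all 15056 genes were called in that test, although 16.3% of all genes had an unadjusted p under 0.05.

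With TMM factors all 10 genes differed by share class. In a fit over the 8 HSPC libraries with the genotype as a covariate, also chosen after seeing the data, 10 of 10 genes were called between high-share and low-share libraries, where 69.4% of all genes were. Of these, 8 were lower in the high-share libraries, against 36.5% of all genes, and 2 were higher, against 32.9%. The differences were -1.85 in Eif4g2 (SE 0.26, adjusted p = 3.46e-04), -1.5 in Met, -1.18 in Polr2m, -1.10 in Rock2, -1.01 in Zeb1, -0.99 in Foxo1, -0.92 in Elavl1 and -0.56 in Igf1r. With TMM factors Notch1 (0.39) and Hras (1.17, SE 0.10, adjusted p = 4.29e-05) were higher. By total counts Notch1 was lower in the high-share libraries, at 174 ± 12.6 against 213 ± 28.9 CPM (SD, n = 4 each), and by TPM at 24.4 against 37.5, so its direction depends on the scaling. With these factors Hras measured 35.1 to 47.1 CPM in the low-share and 86.5 to 93.8 CPM in the high-share libraries, with no overlap. By total counts its means were closer, at 41.9 ± 2.91 and 58.8 ± 2.68 CPM. By TPM the classes overlapped, at 26.5 to 29.3 and 27.8 to 33.4, so the size of its difference depends on the scaling. Notch1 and Hras had the highest GC content of the 10 genes, 57.1 and 55.2%, against 41.4 to 49.9% in the others and a median of 49.7% over genes tested. The part of GC content in the split was not tested.

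MLL-AF9 cells were set against WT HSPCs to ask how the targets stand after transformation. Of the 10 genes 5 were called, 2 higher (Rock2 and Igf1r) and 3 lower (Zeb1, Met and Hras). Over all 17077 genes tested 62.2% were called, 32.8% higher and 29.4% lower, so the share of the 10 genes called was not above that of all genes. Their median log2 fold change was -0.00 and that of all genes 0.14. The groups did not overlap for 3 of the 10 genes (Rock2, Zeb1 and Hras), against 50.5% of all genes. Against Mir139KO HSPCs the same comparison gave 5 called, again Rock2 and Igf1r higher and Zeb1, Met and Hras lower, where 69.3% of 16953 genes were called, 37.3% higher and 31.9% lower. There the groups did not overlap for 4 of 10 genes, Igf1r being the fourth, against 58% of all genes. Both comparisons use the same MLL-AF9 libraries, so their values are not independent. Each is given beside the other below. The counts of each gene list below stand beside the shares of all genes given here.

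How many of the 10 genes were called, and which, depended on the processing. With the neo cultures only it was 3 against WT, where 54.2% of all genes were called. With the low-share HSPC libraries only it was 4 against WT, where 41.8% of all genes were called, and 4 against Mir139KO, where 51% were. With the high-share libraries only it was 5 (62.8% of all genes), with Eif4g2 gained and Met lost, and 4 (60.2%). With the GC correction it was 5 (57.7%) and 6 (62.7%), and with total counts only 4 (57.8%) and 5 (66.2%).

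Rock2 rose most. It measured 228, 242, 243, 126, 188 and 128 CPM in MLL-AF9 replicates 1 to 6. In WT replicates 1 to 4 it measured 21.2, 30, 8.25 and 11.7 CPM, and in Mir139KO replicates 1 to 4 10.4, 26.4, 16.7 and 13.1 CPM. The lowest MLL-AF9 library was thus far above the highest HSPC library. The log2 fold change was 3.42 against WT (SE 0.42, interval 2.5 to 4.33, adjusted p = 5.03e-05), which is 10.7-fold, and 3.50 against Mir139KO HSPCs (SE 0.35, adjusted p = 5.19e-06). It was called under all 25 alternatives of each comparison. The smallest value came with the correction for GC content, 2.18 against WT and 2.06 against Mir139KO. The 3 puro cultures were lower than the 3 neo cultures by a log2 difference of -0.70 (SE 0.19, adjusted p = 0.163), which was not called. In that comparison, chosen after seeing the data, 0 of the 10 genes and 0.873% of all genes were called.

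Other genes of the ROCK pathway list moved in both directions. Of 9 tested, 3 were higher and 4 lower than in WT HSPCs, with a median of -0.36. Rock1, the closest relative of Rock2, rose by 3.23 (SE 0.35, adjusted p = 2.23e-05), from 19.0 ± 8.38 to 180 ± 34.9 CPM. Ppp1r12a, the myosin phosphatase subunit that ROCK kinases inhibit, rose by 2.53, and the GTPase Rhoc rose by 1.96. Limk1, a kinase activated by ROCK, fell by 1.86, the actin-severing protein Cfl1 fell by 1.61 and Rhoa fell by 0.70 on the log2 scale. Of 25 alternatives, Rhoc was called in 22 and Rhoa in 21. Against Mir139KO HSPCs 4 were higher and 4 lower of 9.

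Igf1r measured 251, 254, 232, 378, 633 and 366 CPM in MLL-AF9 replicates 1 to 6. In WT replicates 1 to 4 it measured 262, 207, 138 and 150 CPM, and in Mir139KO replicates 1 to 4 155, 191, 221 and 148 CPM. The neo cultures overlapped WT replicate 1, and the puro cultures were above all HSPC libraries. Its log2 fold change was 0.87 against WT (SE 0.34, adjusted p = 0.0383) and 0.94 against Mir139KO HSPCs (SE 0.30, adjusted p = 0.0141). Against WT the call was lost under 11 of 25 alternatives, with values of 0.39 to 0.88 there. Among them were the low-share WT libraries only (0.52), the neo cultures only (0.39) and MLL-AF9 replicates 4 and 6 summed. Leaving out WT replicate 2, 3 or 4 (0.88, 0.73 and 0.76) or MLL-AF9 replicate 4, 5 or 6 (0.85, 0.65 and 0.87) each ended it as well. Against Mir139KO it was lost under 4 of 25, among them without Mir139KO replicate 4 (0.80).

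In the insulin-like growth factor list 6 of 11 genes tested were higher and 3 lower than in WT HSPCs. Over all genes 32.8% were higher and 29.4% lower. The medians were 1.57 for the list and 0.14 for all genes. The ligand gene Igf1 was higher by 2.08, from 1.80 ± 0.693 to 7.67 ± 3.15 CPM (adjusted p = 0.00187), and the insulin receptor Insr rose by 1.85. Igfbp4, which binds the ligands, fell by 1.38 and the kinase Akt1 fell by 1.32. With the GC correction Igf1 (0.18), Igfbp4 (-0.48) and Akt1 (-0.28) were not called. Against Mir139KO HSPCs 6 were higher and 2 lower of 10.

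Hras fell to 8.92, 20.8, 15.6, 7.47, 13.2 and 7.95 CPM in MLL-AF9 replicates 1 to 6. The 8 HSPC libraries held 35.1 to 93.8 CPM, so the groups did not overlap even though the HSPC libraries differed by share class. Hras had a log2 fold change of -2.40 against WT (SE 0.39, adjusted p = 2.92e-04) and -2.49 against Mir139KO HSPCs (SE 0.35, adjusted p = 5.58e-05). Hras was called under all 25 alternatives of each comparison, from -3.01 with the high-share WT libraries only to -1.47 with the GC correction against WT.

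Of 13 other genes of the RAS list tested, 7 were higher and 0 lower than in WT HSPCs. Over all genes 32.8% were higher and 29.4% lower. The medians were 1.14 for the list and 0.14 for all genes. Against Mir139KO HSPCs 8 were higher and 1 lower, where 37.3% of all genes were higher and 31.9% lower. The values that follow are against WT unless stated. Braf, a kinase activated by RAS, rose by 3.56 (SE 0.41, adjusted p = 3.30e-05), from 17.6 ± 10.2 to 210 ± 25.8 CPM. Rasa1 and Nf1, which switch RAS off, rose by 2.62 and 2.47. Mapk3 fell by 0.91 on the log2 scale against Mir139KO HSPCs but was at 0.08 with the GC correction.

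Zeb1 measured 4.87, 7.88, 5.39, 3.56, 1.94 and 4.02 CPM in MLL-AF9 replicates 1 to 6, against 33.5, 31.9, 11 and 14.2 CPM in WT and 12.9, 22.0, 23.3 and 15.5 CPM in Mir139KO replicates 1 to 4. No MLL-AF9 library reached the lowest HSPC library. Its log2 fold change was -2.31 against WT (SE 0.43, adjusted p = 6.68e-04) and -2.03 against Mir139KO HSPCs (SE 0.35, adjusted p = 2.78e-04), called under all 25 alternatives of each. Zeb2, its relative, listed here among other genes named as miR-139 targets, rose by 2.81 (adjusted p = 2.42e-04), from 78.4 ± 41.5 to 555 ± 211 CPM. With the GC correction Zeb2 was at 1.45 and was called. Cdh1, the E-cadherin gene that ZEB factors repress, fell by 3.12 (adjusted p = 8.30e-05), and the co-repressor Ctbp1 fell by 2.5. In the list of ZEB partners and targets 1 of 6 genes was higher and 3 were lower than in WT HSPCs, and the same counts held against Mir139KO.

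Met measured 7.41, 26.3, 18, 14.8, 12.6 and 16.3 CPM in MLL-AF9 replicates 1 to 6. In WT replicates 1 to 4 it measured 72.0, 83.8, 20.0 and 20.6 CPM, and in Mir139KO replicates 1 to 4 15, 54.6, 44.2 and 31.4 CPM. MLL-AF9 replicate 2 lay above the high-share WT libraries, and the groups overlapped. The log2 fold change was -1.65 against WT (SE 0.45, adjusted p = 0.00718) and -1.22 against Mir139KO HSPCs (SE 0.37, adjusted p = 0.0107). With the high-share libraries only, Met was not called, at -0.49 against WT and -0.64 against Mir139KO, nor with total counts only, at -1.26 and -0.64. The call was also lost against WT with the neo cultures only (-1.51), and against Mir139KO without Mir139KO replicate 2 (-0.96). Of the 6 genes of the MET list, 0 were higher and 2 lower than in WT HSPCs. Against Mir139KO 2 were higher, the adaptor Gab1 by 1.6 and the ubiquitin ligase Cbl by 0.84, and 2 were lower. Of 25 alternatives, Gab1 was called in 18 and Cbl in 23.

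**Figure D3:**
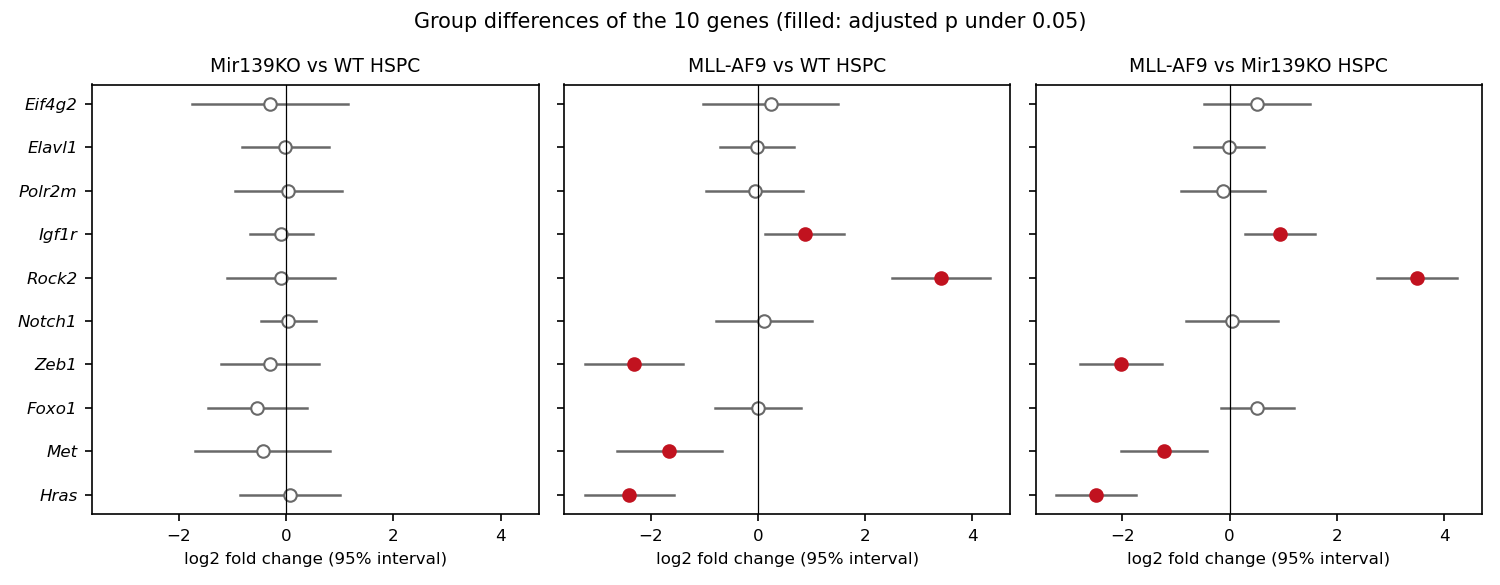
Log2 fold change with its 95% interval for the 10 genes in the 3 comparisons, filled where the adjusted p was under 0.05. No gene is filled for Mir139KO over WT HSPCs, and the same 5 genes are filled in both comparisons of MLL-AF9 cells, from Hras (-2.40 and -2.49) to Rock2 (3.42 and 3.50).

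Eif4g2 was not called between MLL-AF9 cells and either HSPC group. It measured 323, 1004, 767, 254, 555 and 271 CPM in MLL-AF9 replicates 1 to 6, a range that lay above the high-share HSPC libraries (106 to 239 CPM) and spanned the low-share ones (494 to 826 CPM). Its log2 fold change was 0.24 against WT (SE 0.58, interval -1.02 to 1.49, adjusted p = 0.738) and 0.51 against Mir139KO HSPCs (SE 0.45, interval -0.47 to 1.5, adjusted p = 0.326). The direction depended on the WT libraries used. It was 1.77 (adjusted p = 0.0276, called) with the high-share WT libraries only and -0.56 (adjusted p = 0.392) with the low-share WT libraries only. Against the same classes of Mir139KO HSPCs it was 1.25 (adjusted p = 0.0821) and -0.05. With the GC correction it was -0.55 against WT and -0.56 against Mir139KO. Neo cultures averaged 698 ± 346 CPM and puro cultures 360 ± 169 CPM (SD, n = 3 each), a log2 difference of -0.98 that was not called (adjusted p = 0.43).

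The other translation factors of the eIF4 list differed in both directions. Of 11 tested, 2 were higher and 4 lower than in WT HSPCs, with a median of -0.64. The helicase gene Eif4a2 rose by 1.74, from 53.1 ± 14.5 to 180 ± 29.7 CPM, and the scaffold gene Eif4g3 rose by 1.15. The main scaffold gene Eif4g1 fell by 1.27, from 869 ± 143 to 369 ± 186 CPM (adjusted p = 0.00851), Eif4h fell by 1.19 and Eif4ebp2, an inhibitor of the cap-binding protein, fell by 1.15. Against Mir139KO HSPCs 3 were higher and 5 lower. Against WT the number called was 6, and 3 with total counts only or with the GC correction. With that correction Eif4a2 was at 0.12, Eif4g1 at -0.50, Eif4h at -0.35 and Eif4ebp2 at -0.49, and none of these was called.

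Polr2m, at 10.8, 25, 22.5, 9.95, 27.4 and 12.0 CPM in MLL-AF9 replicates 1 to 6, stayed within the range of the HSPC libraries, 8.88 to 30.2 CPM. The log2 fold change was -0.06 against WT (SE 0.41, interval -0.96 to 0.84, adjusted p = 0.912) and -0.12 against Mir139KO HSPCs (SE 0.36, interval -0.90 to 0.66, adjusted p = 0.779). It was 0.69 with the high-share and -0.64 with the low-share WT libraries only, and was called under none of the 25 alternatives of either comparison. Of 13 tested factors that act with RNA polymerase II at the pause, 1 was higher and 8 were lower than in WT HSPCs, where 32.8% of all genes were higher and 29.4% lower, with a median of -1.14 against 0.14 for all genes. The cyclin gene Ccnt2 rose by 2.32, while Polr2a, the largest polymerase subunit, fell by 2.18, from 662 ± 234 to 150 ± 41.8 CPM (adjusted p = 1.05e-04), and Nelfb and Nelfe, of the pausing complex NELF, fell by 1.54 and 1.49, the latter not called with the GC correction (-0.46). Against Mir139KO HSPCs 2 were higher and 8 lower.

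Elavl1, at 99.2, 177, 152, 95.4, 186 and 92.2 CPM in MLL-AF9 replicates 1 to 6, averaged 134 ± 43.3 CPM against 133 ± 51.4 and 132 ± 48.4 CPM in WT and Mir139KO HSPCs. The log2 fold changes were -0.01 (interval -0.70 to 0.68, adjusted p = 0.977) and -0.01 (interval -0.66 to 0.64, adjusted p = 0.974). The direction depended on the libraries and scaling used. Against WT it was -0.47 with the low-share and 0.45 with the high-share WT libraries only. Against Mir139KO it ran from -0.51 with the GC correction to 0.58 with total counts only. Elavl1 was called under none of the 25 alternatives of either comparison. Of 9 other AU-rich element binding genes tested, 2 were higher and 2 lower than in WT HSPCs. The higher ones were Elavl2, at 13.02 (adjusted p = 6.72e-05), and Elavl3, at 2.59 (adjusted p = 0.00771), both with low mean levels. Khsrp, which promotes decay of such messages, fell by 2.11 (adjusted p = 2.91e-04), and Zfp36l2 fell by 0.91, a call lost under 11 of 25 alternatives. Against Mir139KO 4 were higher and 2 lower, with Tia1 at 1.10, which turned to -0.43 with the GC correction (adjusted p = 0.0341), so its direction depends on that setting. With the GC correction the count called against WT was 7.

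MLL-AF9 replicates 1, 4 and 6 held the 3 lowest levels of Eif4g2, Elavl1, Polr2m and Hras and the 3 highest of Notch1 and Foxo1 among the 6 cultures. The same replicates had the highest TMM factors, 1.365 to 1.405, against 1.152 to 1.291 in replicates 2, 3 and 5, and the part of this in the spread was not tested. Over the 14 libraries the genes with log2 levels most like Eif4g2, of 8542 searched, were Hnrnpa2b1, Metap2 and Caprin1, with Pearson r of 0.990 to 0.981. Those most like Polr2m were Thap12, Srsf3 and Anp32e (0.986 to 0.984), and those most like Elavl1 were AU020206, Nsd2 and Sfr1 (0.989 to 0.982). The 14 points share the split by share class.

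Notch1 measured 360, 166, 147, 383, 89.5 and 371 CPM in MLL-AF9 replicates 1 to 6, from below the lowest to above the highest HSPC library. Its log2 fold change was 0.11 against WT (SE 0.41, interval -0.79 to 1.01) and 0.04 against Mir139KO HSPCs (SE 0.39, adjusted p = 0.929). It was called with the GC correction against Mir139KO, at 0.92 (adjusted p = 0.0396), and not against WT, at 0.87. Other genes overlap 9.76% of its exon length on the opposite strand, and the strand setting of the counts was not stated. In the Notch list 2 of 10 genes tested were higher and 3 lower than in WT HSPCs. Rbpj, the DNA-binding partner of the cleaved receptors, rose by 2.07 (adjusted p = 0.00139), the coactivator Maml1 rose by 0.87 and Notch2 fell by 1.28. Of 25 alternatives, Maml1 was called in 16 and Notch2 in 18, the latter not with the GC correction (-0.67). The counts were the same against Mir139KO.

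Foxo1 measured 23.2, 18.6, 13.2, 26.4, 12.2 and 26.3 CPM in MLL-AF9 replicates 1 to 6. Foxo1 had a log2 fold change of 0.01 against WT (SE 0.37, interval -0.80 to 0.81, adjusted p = 0.989) and 0.52 against Mir139KO HSPCs (SE 0.31, interval -0.16 to 1.2, adjusted p = 0.155). Against WT it was -0.54 with the low-share and 0.70 with the high-share WT libraries only, and neither was called. With total counts only it was called against Mir139KO, at 1.18, where the scaling raised the median of all genes by 0.70. Genes on the opposite strand overlap 7.778% of its exon length. Of 9 genes of the FOXO list tested, 2 were higher and 1 lower than in each HSPC group. The stress genes Trp53inp1 and Sesn1 rose by 2.90 and 1.05 against WT, and the relative Foxo4 fell by 1.27.

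**Figure D4:**
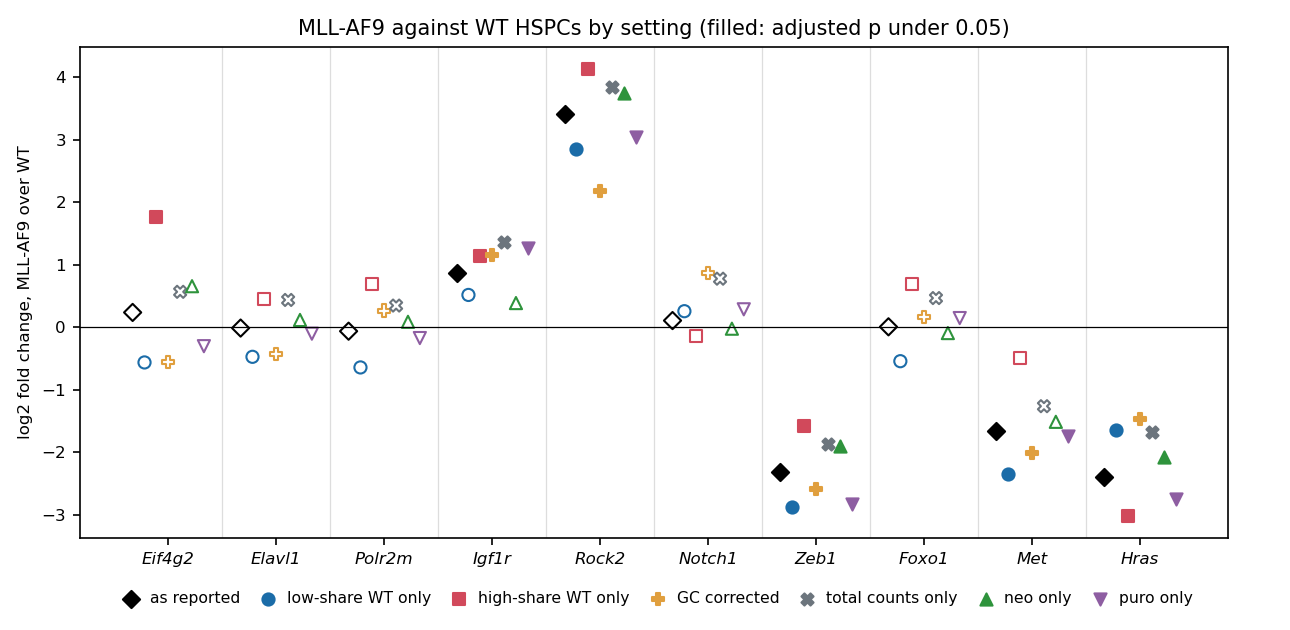
Log2 fold change of MLL-AF9 cells over WT HSPCs for the 10 genes in 7 settings, filled where the adjusted p was under 0.05. Rock2 stays above 2 and Zeb1 and Hras stay below -1.4 in each, while Eif4g2 runs from -0.56 to 1.77.

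Hpgd and Ptprt, other targets named by the study, stood apart from the 10 genes. Hpgd, which encodes a prostaglandin-degrading enzyme, differed widely between the MLL-AF9 cultures, with 14.3, 145 and 50.3 CPM in the neo and 350, 738 and 404 CPM in the puro cultures. HSPC libraries held 0.726 to 2.79 CPM. Its 3′ UTR of at most 838 bases held no 7-base match to either miR-139 strand, and that of Ptprt held 1 to miR-139-5p. The 3′ UTR of Ptprt also held 1 shorter 5p match and 2 shorter 3p matches of 6 bases and an A. The reporter oligonucleotides of Hpgd and Ptprt that were read here, 1 pair for each gene, held no 7-base match, unlike that of Eif4g2. That of Ptprt held the shorter 3p match of 6 bases and an A, and its altered bases lay inside it. Ptprt had 0 to 9 counts in each HSPC library and 6 to 33 in each MLL-AF9 library and was too low to be tested. Of the 9 tested genes in the list of other named targets, 5 were higher and 1 lower than in WT HSPCs. Over all genes 32.8% were higher and 29.4% lower. The medians were 1.04 for the list and 0.14 for all genes. Tcf4 rose by 2.71 (adjusted p = 2.30e-04) and Cxcr4, a chemokine receptor that holds cells in the marrow, fell by 2.32 (adjusted p = 9.97e-06). With the GC correction Tcf4 was at 1.35 and Cxcr4 at -2.74, and both were called.

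The machinery through which microRNAs act was measured beside the targets. Of 12 genes tested, 4 were higher and 3 lower in MLL-AF9 cells than in WT HSPCs, and 5 higher and 3 lower than in Mir139KO HSPCs. Ago3 and Ago4, which bind microRNAs, rose by 3.14 and 1.78 against WT, and Tnrc6b, a partner in silencing, rose by 1.55. Ago1 fell by 0.74, the export factor Xpo5 fell by 1.07 and Tarbp2, which assists Dicer, fell by 1.70. With the GC correction Ago1 (-0.31) and Xpo5 (-0.64) were not called. Between Mir139KO and WT HSPCs 0 of 12 were called.

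All genes with a seed match were described in the same way. Of 1733 tested genes with a 7-base miR-139-5p match, 0 were called between Mir139KO and WT HSPCs, at a median of -0.10 against -0.03 over the 12656 tested genes with a 3′ UTR. In MLL-AF9 cells against WT, 59.4% of 1849 such genes were called, against 62.1% of genes with a 3′ UTR. Of the genes tested 38.5% were called higher, against 31.9%, and the median was 0.53 against 0.09. For the 8-base match the median was 0.63. These genes had a median GC content of 47.0%, against 49.9% in genes with a 3′ UTR, and with the GC correction the medians were 0.25 and 0.15. Against Mir139KO HSPCs the medians were 0.63 and 0.10, and 0.29 and 0.16 with the correction. Genes with a 7-base miR-139-3p match had a median of 0.03 against WT and a GC content of 50.2%. These are descriptions without a test.

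**Figure D5:**
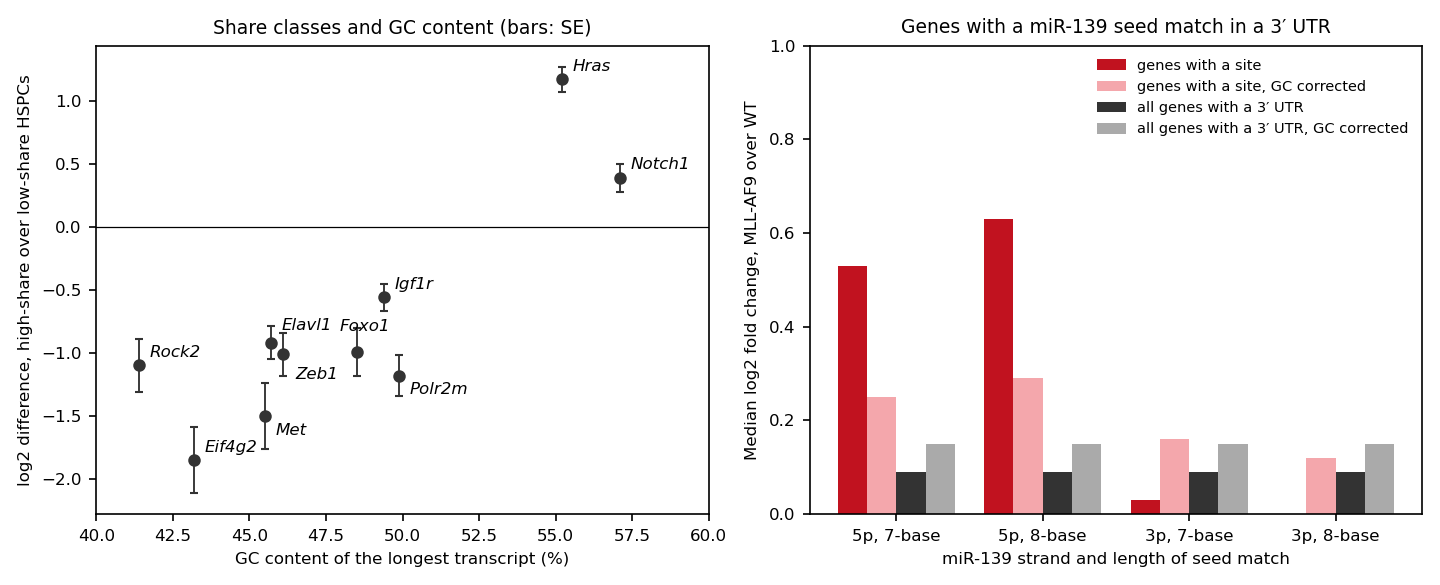
Left, log2 difference of high-share over low-share HSPC libraries (bars, 1 SE) against the GC content of the longest transcript for the 10 genes. Right, median log2 fold change of MLL-AF9 over WT for genes with a miR-139 seed match and for all genes with a 3′ UTR, before and after the GC correction. With TMM factors Notch1 and Hras, with 57.1 and 55.2% GC, are the genes above 0 on the left, though by total counts Notch1 is lower in the high-share libraries, and the 7-base 5p bar drops from 0.53 to 0.25 on the right.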

How the data were processed

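RNA of 14 libraries was measured by sequencing after depletion of ribosomal RNA. The authors mapped reads to GRCm38 with STAR 2.5.3e and counted them per gene with featureCounts 1.6.0, per the labels. The deposited values are raw counts with no normalization. Whether strand was used and how reads on several genes were handled is not given in the sources used here, and 10 columns of another series were not used. Gene identifiers were matched to GENCODE M21 for positions, exon lengths, GC content and 3′ UTRs (52403 of 52550 matched). 3′ UTRs ran from the stop codon of protein-coding transcripts.

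Genes with at least 10 counts in as many libraries as the smaller group were tested in edgeR 4.0.16 (TMM factors, robust quasi-likelihood F test) with the libraries of the 2 groups only, at a Benjamini-Hochberg adjusted p under 0.05. SE is the fold change over the square root of F, and 95% intervals use it with the t distribution. CPM used TMM factors over all libraries, and log2 CPM a prior count of 2. TPM used counts per exon length without further factors. Alternatives were RLE factors, total counts, DESeq2 1.42.0, limma-voom (limma 3.58.1), other filters, all 14 libraries, a replicate block, a GC spline with 5 degrees of freedom, share classes, vectors, Gm26917 left out and each replicate left out. The sum of MLL-AF9 replicates 4 and 6, the interaction, and the share and vector comparisons were chosen after seeing the data. The test was checked on simulated data with 1 dispersion of 0.05 and no split by share class. There 146 of 200 changes of 1 log2 unit were recovered between the genotypes, with 3 false calls. The real libraries carry that split, so this does not give the recovery in these data. Intervals carry the spread between libraries, and floors cover counting error only. The genes and lists were chosen with earlier results of these data known. Genes named are the 10 genes and, of each list, called genes with the largest change and a mean log2 CPM of at least 1, at most 3 per direction. Hes1, Dtx1, Elavl2 and Elavl3 are named as well, though below that mean level. Some list genes that meet this rule are not reported here.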

Additional observations from a re-analysis of the deposited data

Results flagged for a closer look

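Igf1r in MLL-AF9 replicate 5, a puro culture, was at 633 CPM, farther from the next culture, at 378 CPM, than a 95% limit for the spread of 6 values allows. Of 30 groups of libraries looked at, chance sets apart about 1 in 20. Without that replicate Igf1r was higher than in WT HSPCs by 0.65 and was not called.

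Eif4g2 had fold changes of opposite sign between the genotypes in the share classes, -0.51 in the low-share and 0.53 in the high-share class, and neither was called. In the high-share class Mir139KO replicate 1 was at 174 CPM and WT replicate 4 at 173 CPM, an order that total counts (109 and 116 CPM) and TPM (19.6 and 22.7) reverse. The test of the difference gave 1.08 (SE 0.34, unadjusted p = 0.0128) and an adjusted p of 0.285 over all genes, which does not pass. The Gm26917 share also differed between the genotypes in the low-share class.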

How the results depend on the processing

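None of the 10 genes changed its call between Mir139KO and WT HSPCs in 21 alternatives. Without a call, 9 of the 10 genes changed sign somewhere (37 of 210 values). Against WT, MLL-AF9 cells had 5 genes called and 3 with the neo cultures only (54.2% of all genes), and leaving out a replicate gave 4 to 5 (53 to 61.1%). Against Mir139KO HSPCs 5 were called, and leaving out a replicate gave 4 to 5 (61.9 to 69.1%). Of 250 values each, 14 lost and 1 gained a call against WT, and 7 lost and 2 gained a call against Mir139KO, and 0 calls reversed. Of the losses 11 against WT and 4 against Mir139KO were of Igf1r, and the others were of Met. The gains were Eif4g2, Notch1 and Foxo1, as given above. With total counts only, the median of all genes moved by 0.57 against WT and 0.70 against Mir139KO, and mean levels moved by more than 1 SD for Rock2 (248 CPM) and Foxo1 (26.4 CPM) in MLL-AF9 cells and Notch1 (190.0 CPM) in Mir139KO HSPCs. The cause of these moves was not tested. List counts stayed within 1.5 times of the value given in 483 of 500 settings against WT, 484 of 500 against Mir139KO and 420 of 420 between the genotypes.

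With the replicate number as a block, 4 genes were called in each comparison of MLL-AF9 cells (54.5% of all genes against WT, 67.6% against Mir139KO) and 0 between the genotypes (0%). Igf1r was the gene lost (0.57 against WT and 0.60 against Mir139KO). The deviations of same-numbered libraries correlated at -0.579 to 0.642 between the genotypes and at -0.0552 to 0.19 with MLL-AF9 cells. Between the genotypes the values were positive for replicates 2 and 4, whose libraries were of the same share class. They were negative for replicates 1 and 3, whose libraries were of different classes. These correlations therefore cannot show whether the numbers pair the HSPC libraries.

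For Eif4g2 the SE between the genotypes was 0.65, and 0.26 with the share class as a covariate.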
